A study of Homo sapiens with 132 samples.

Results

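The genes described here belong to the arm of insulin and growth factor signaling that runs from receptor to FOXO transcription factors. They were PIK3IP1, the FOXO factors FOXO1, FOXO3 and FOXO4, the receptors INSR and IGF1R, the adaptors IRS1 and IRS2, and SESN3. These 9 genes were taken by symbol from the 65217 gene identifiers counted in every library. The study sequenced mRNA of 4 gastric cancer cell lines, all grown from metastatic sites, with 3 replicate libraries for each of 44 conditions of line, treatment and time. MKN1 and Hs746T cells were left untreated or received EGF (5 ng/ml), cetuximab (1 µg/ml), EGF with cetuximab, trastuzumab (5 µg/ml), afatinib (0.5 µM) or trastuzumab with afatinib, each for 4 h or 24 h. The 2 other lines, MKN7 and NCI-N87, had the untreated, trastuzumab, afatinib and combined arms of these. Cetuximab is an antibody against EGFR, trastuzumab is an antibody against HER2, and afatinib is an irreversible kinase inhibitor of the HER family. The control libraries were of untreated cells and none was labelled as given the solvent. An effect of the afatinib solvent therefore cannot be told apart from that of the drug in these libraries. The paper names a DMSO treatment in its RNA methods, and reports qPCR of selected genes with a DMSO control. MKN1, MKN7 and NCI-N87 cells were kept in RPMI medium and Hs746T cells in DMEM, so medium and line cannot be told apart in comparisons with Hs746T.

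Insulin and IGF1 bind the receptors INSR and IGF1R, which phosphorylate IRS1 and IRS2. These adaptors recruit PI3 kinase, whose lipid product activates AKT. Receptors of the HER family feed the same kinase. AKT phosphorylates FOXO factors and keeps them out of the nucleus, and when AKT activity falls they enter it and switch on genes of cell cycle arrest, apoptosis and stress defence. FOXO factors are also known to activate genes of the pathway above them, INSR and IRS2 among them, and SESN3, a sestrin that restrains mTOR complex signaling. PIK3IP1 is a membrane protein that binds the catalytic subunit of PI3 kinase and restrains it.

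Of the 9 genes, 8 had counts. SESN3 was listed at 0 in every library and is given no level here, because genes that every cell uses were listed at 0 in the same way. RPS4X, EIF4A1, EIF4G1 and HNRNPA1 were at 0 throughout, as were 6 of 85 ribosomal protein genes and 1970 of 19674 protein-coding genes (10.0%). In GRCh38 coordinates (GENCODE 29), PIK3IP1 lies on chromosome 22 from 31281593 to 31292534 on the minus strand. FOXO1 lies on chromosome 13 from 40469953 to 40666597 (minus), FOXO3 on chromosome 6 from 108559835 to 108684774 (plus) and FOXO4 on chromosome X from 71096197 to 71103535 (plus). INSR lies on chromosome 19 from 7112255 to 7294034 (minus) and IGF1R on chromosome 15 from 98648539 to 98964530 (plus). IRS1 lies on chromosome 2 from 226731317 to 226799759 (minus), IRS2 on chromosome 13 from 109752698 to 109786568 (minus) and SESN3 on chromosome 11 from 95165513 to 95232541 (minus). The values are reads over all exons of a gene. PIK3IP1 shares 36 exon bases with an antisense gene, PIK3IP1-AS1, whose counts, summed over all libraries, came to 7.26% of those of PIK3IP1. The medians per library were 19 and 93 counts, and the share in single libraries was not computed. FOXO1 shares 269 exon bases with LINC00598 on the same strand (7.82% of its counts) and IRS2 shares 115 with the antisense gene AL162497.1 (5.6%). These shares are also sums over all libraries and do not describe single lines. The strand setting of the counting was not given in the sources used here, so reads of these pairs may be split.

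PIK3IP1 and FOXO4 were the only members with the letters of a FOXO recognition motif, GTAAACA or its reverse complement TGTTTAC, in their promoter windows. A window spanned 250 bases before and 50 bases after a RefSeq transcription start (GRCh38.p14). All 9 members had windows, 13 in all, and 2 held the motif, against 1202 of 35116 windows of all genes (3.42%). Counted by gene, 2 of the 9 members held it, against 1145 of 27305 genes (4.19%). The match in PIK3IP1 was 17 bases after the second of its starts (chr22:31292455-31292484, minus strand) and that in FOXO4 24 bases after its start (chrX:71095862-71095891, plus strand). Both are shown 5′ to 3′ on the strand of the gene, with the motif in capitals. A match describes the letters of the window and does not show binding, and any relation to the afatinib response was not tested.
PIK3IP1: ctaaagagaggcTGTTTACcagaacagcat
FOXO4: ccccggcgagtgGTAAACAgagacgtcagg

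Libraries held between 25832557 and 69434151 counts (median 50725775.5), at which 3 counts, the floor used here, amounted to 0.0432 to 0.116 CPM. CPM are the counts of a gene scaled to a fixed library total, here with TMM (trimmed mean of M values) scaling over all libraries, and differences are log2 fold changes (log2FC) with standard errors (SE) from edgeR's quasi-likelihood test, called changed at an adjusted p below 0.05. The study speaks of independent experiments for its data in general, and the labels do not say how the replicates of these libraries were grown. Markers of cell types were read in each line. No reference profile of a line was used, so they do not verify the line labels. The epithelial gene CDH1 had medians of 243 and 256 CPM in MKN7 and NCI-N87 cells, but of 2.0 and 0.785 CPM in MKN1 and Hs746T cells. The mesenchymal gene VIM stood at medians of 559 CPM in MKN1 and 1595 CPM in Hs746T cells and at 3.74 and 4.17 CPM in MKN7 and NCI-N87. Keratins KRT8, KRT18 and KRT19 were lowest in Hs746T cells, where PECAM1, an endothelial marker, had a median of 155 CPM and COL1A1 of 523 CPM. The mesenchymal genes LUM and DCN, however, had medians of only 0.12 and 0.107 CPM in Hs746T cells. DCN did not exceed 1.15 CPM in any library of any line. MKN1 cells were mixed by these markers. KRT8 had medians of 11066 CPM there, 9662 in NCI-N87 and 3083 in MKN7 cells, and COL1A1 had a median of 13.5 CPM in MKN1. EPCAM was low in MKN1 cells (median 25.1 CPM), as CDH1 was, and the mesenchymal gene LUM had a median of 81.4 CPM there. The leukocyte marker PTPRC did not exceed 0.664 CPM in any library. Of the gastric markers TFF1 did not exceed 2.67 CPM and CLDN18 did not exceed 5.04 CPM, while MUC5AC had a median of 105 CPM in NCI-N87 cells.

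In untreated cells the lines differed in most of these genes, as they did in most genes overall. Untreated levels and differences between lines are given at 24 h unless stated. At 24 h, PIK3IP1 was lowest in MKN1 cells (0.839 ± 0.0893 CPM, mean ± SD, n = 3), followed by Hs746T (1.49 ± 0.366), MKN7 (5.29 ± 0.826) and NCI-N87 cells (7.33 ± 1.93). Each step in this order passed the test, with log2 differences of 0.79 between Hs746T and MKN1, 1.86 between MKN7 and Hs746T and 0.47 between NCI-N87 and MKN7. The last of these was not called without replicate 1 (adjusted p = 0.0729), nor the first without replicate 2 (adjusted p = 0.0548). Before treatment PIK3IP1 was far lower in the pair of lines with high VIM than in the pair with high CDH1, and no library of MKN7 or NCI-N87 overlapped one of MKN1 or Hs746T.

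The adaptors ran in different orders. IRS1 was highest in MKN1 (206 ± 62.9 CPM) and NCI-N87 cells (192 ± 19.9), which did not differ by the test, lower in Hs746T (70.6 ± 22.8) and lowest in MKN7 cells (21.2 ± 2.54). IRS2 was highest in MKN7 (104 ± 10.3 CPM) and Hs746T cells (73.1 ± 6.91), lower in MKN1 cells (23.7 ± 1.81) and close to the floor in NCI-N87 cells (0.296 ± 0.209 CPM). In the 24 NCI-N87 libraries IRS2 had 2 to 31 counts (median 14.5), and its level did not exceed 0.719 CPM under any treatment. Per kilobase of exon, IRS1 in NCI-N87 cells (19.3 CPM per kb) stood above IRS2 in the same cells (0.0364 CPM per kb), whereas in MKN7 cells IRS2 (12.8 CPM per kb) was above IRS1 (2.13 CPM per kb). The step from MKN7 to Hs746T in IRS2 (log2 difference 0.51) was not called without replicate 1 (adjusted p = 0.0587), without replicate 2 (adjusted p = 0.0997) or with library size as the only scaling (adjusted p = 0.0559).

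Of the receptors, IGF1R spanned a wider range than INSR. IGF1R ran from 63.0 ± 13.8 CPM in MKN7 through 30.2 ± 3.70 in NCI-N87 and 11.1 ± 1.54 in MKN1 to 2.54 ± 1.24 CPM in Hs746T cells, and every pair of lines differed, MKN7 and NCI-N87 not without replicate 2 (adjusted p = 0.0923). INSR lay between 19.4 ± 4.64 CPM in MKN1 and 28.96 ± 5.46 CPM in Hs746T cells at 24 h. Only this pair passed the test at that time (log2 difference 0.58), a call lost without any 1 of the replicates (adjusted p = 0.0612, 0.144 and 0.0621 without replicates 1, 2 and 3). At 4 h INSR differed between MKN7 and MKN1 and between Hs746T and MKN1 cells, as all 8 members did. FOXO1 was lowest in Hs746T cells (3.61 ± 0.380 CPM), intermediate in MKN1 (13.7 ± 1.64) and highest in NCI-N87 (23.4 ± 2.36) and MKN7 cells (24.0 ± 3.27), the last 2 not differing by the test.

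FOXO3 was the most abundant FOXO gene per length in every line, from 4.98 CPM per kb in MKN1 to 12.7 CPM per kb in Hs746T cells, against 2.31 to 3.42 CPM per kb for FOXO4 and 0.579 to 3.84 CPM per kb for FOXO1. FOXO3 was lower in MKN1 cells (38.4 ± 7.31 CPM) than in MKN7 (63.1 ± 9.99), NCI-N87 (83.4 ± 3.26) and Hs746T cells (97.8 ± 12.4). The step from MKN1 to MKN7 (log2 difference 0.71) was not called without replicate 2 (adjusted p = 0.0564), nor that from MKN7 to NCI-N87 (0.40) without replicate 3 (adjusted p = 0.281), and NCI-N87 and Hs746T did not differ by the test. FOXO4 had the narrowest range of the 8 genes at 24 h, with 7.96 ± 0.995 CPM in MKN7, 9.39 ± 0.766 in Hs746T, 11.6 ± 1.36 in MKN1 and 11.8 ± 1.68 CPM in NCI-N87 cells. At this time it was lower in MKN7 than in MKN1 (log2 difference −0.54) and NCI-N87 cells. It was also lower in Hs746T than in NCI-N87 cells by 0.33, not called without replicate 1 (adjusted p = 0.452) or replicate 2 (adjusted p = 0.192). The order depended on time, since at 4 h FOXO4 was called higher in MKN7 than in MKN1 cells.

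The background to these differences between lines was high. Of all genes tested, 68.6% differed between Hs746T and MKN1, 64.5% between MKN7 and MKN1, 68.0% between NCI-N87 and MKN1, 66.6% between MKN7 and Hs746T, 68.4% between NCI-N87 and Hs746T and 65.6% between NCI-N87 and MKN7. Between 5 and 7 of the 8 members differed in each pair, which is near that background. At 4 h all 8 differed between MKN7 and MKN1 (14206 of 22832 genes) and between Hs746T and MKN1 cells (15690 of 22832). In the other pairs between 5 and 7 differed at 4 h.

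**Figure D1:**
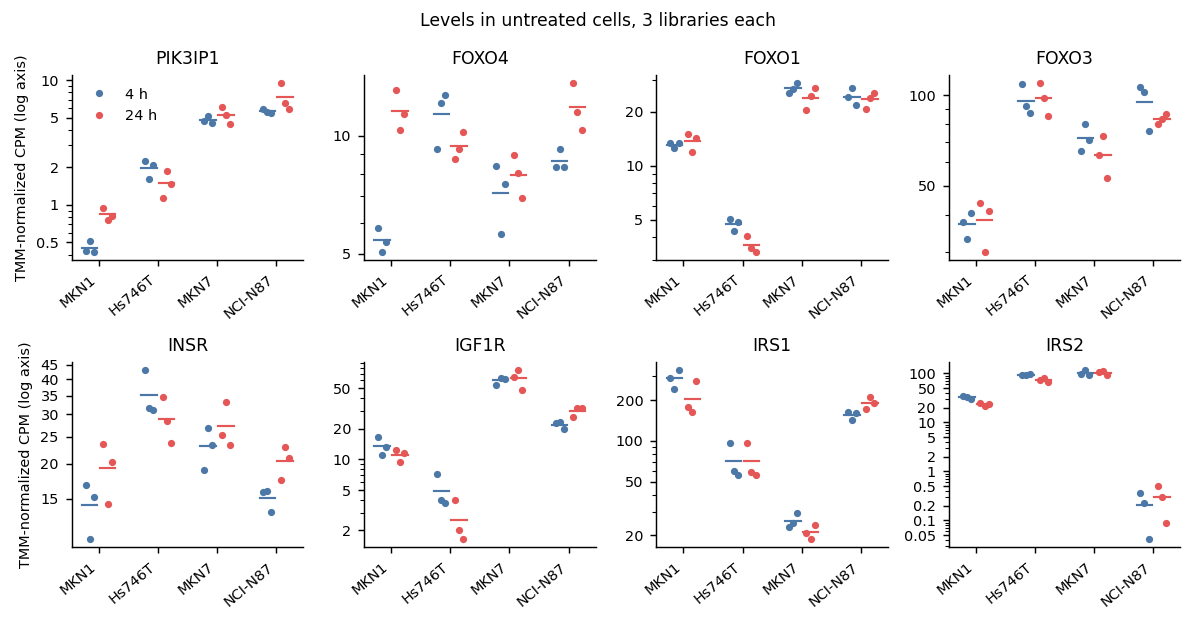
Level of each gene (TMM-normalized CPM, log axis) in the 3 untreated libraries of each line at 4 h (blue) and 24 h (red), with a line at the mean. PIK3IP1 rises from MKN1 to NCI-N87 cells, and IRS2 in NCI-N87 cells has a mean of 0.296 CPM at 24 h against 23.7 CPM or more in the other lines.

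Time in culture moved some of these genes without any drug. In untreated MKN1 cells PIK3IP1 read 0.424, 0.514 and 0.422 CPM at 4 h and 0.938, 0.764 and 0.816 CPM at 24 h, and FOXO4 read 5.81, 5.07 and 5.36 CPM at 4 h and 13.0, 10.3 and 11.4 CPM at 24 h. For both genes all 24 h libraries lay above all 4 h libraries. The log2FC from 4 h to 24 h was 0.87 (SE 0.23, adjusted p = 0.00327) for PIK3IP1 and 1.07 (SE 0.10, adjusted p = 1.52e-09) for FOXO4. IRS2 fell by 0.48 (SE 0.11, adjusted p = 5.59e-04) and IRS1 fell by 0.52 (SE 0.16, adjusted p = 0.0110) on the log2 scale. PIK3IP1 and IRS1 were not called without replicate 1 (adjusted p = 0.101 and 0.270). These were 4 of 8 members, where 34.1% of all genes changed. In the other lines none of the 8 changed by edgeR, against 1.48% of genes in Hs746T, 16.4% in MKN7 and 0.267% in NCI-N87 cells. At an unadjusted p below 0.05 Hs746T had 2 members, MKN7 had 1 and NCI-N87 had 4, and DESeq2 called 0, 0 and 1. The replicate block described below called IGF1R, which was lower at 24 h, in Hs746T cells, FOXO3 (−0.24) and IRS1 (−0.31) in MKN7 cells, and IGF1R (0.47), FOXO4 (0.45) and INSR (0.45) in NCI-N87 cells, where 10.2%, 30.9% and 4.32% of all genes then changed.

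Afatinib raised PIK3IP1 in NCI-N87, MKN7 and MKN1 cells, and the rise was by far the largest in NCI-N87 cells. There the untreated libraries read 5.85, 5.62 and 5.51 CPM at 4 h and the afatinib libraries 31.6, 26.2 and 22.3 CPM. At 24 h the untreated libraries read 9.51, 6.61 and 5.85 CPM and the afatinib libraries 167, 143 and 154 CPM. The lowest treated library thus stood far above the highest untreated one at both times. The log2FC was 2.24 at 4 h (SE 0.20, adjusted p = 5.10e-08), a rise of 4.73-fold, and 4.37 at 24 h (SE 0.21, adjusted p = 2.34e-13), a rise of 20.6-fold. In these bulk samples, more cells with the RNA and more RNA per cell cannot be told apart.

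In MKN7 cells PIK3IP1 read 4.75, 5.15 and 4.50 CPM untreated and 9.16, 9.62 and 9.09 CPM with afatinib at 4 h, and 6.12, 5.28 and 4.47 CPM untreated and 16.0, 17.7 and 12.3 CPM with afatinib at 24 h. The groups did not overlap at either time. The log2FC was 0.91 (SE 0.15, adjusted p = 9.67e-05) at 4 h and 1.53 (SE 0.14, adjusted p = 4.22e-08) at 24 h. In MKN1 cells, where the gene was close to 1 CPM, the afatinib libraries read 1.40, 1.40 and 1.52 CPM at 24 h, all above the untreated ones given above. The log2FC was 0.76 (SE 0.20, adjusted p = 0.00462), a call lost without replicate 3. At 4 h the MKN1 value of 0.58 (SE 0.23, adjusted p = 0.188) did not pass. In Hs746T cells the untreated libraries at 24 h read 1.13, 1.86 and 1.48 CPM and the afatinib libraries 1.5, 1.83 and 1.52 CPM. These groups overlapped, and the log2FC was 0.12 (95% interval −0.28 to 0.52).

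**Figure D2:**
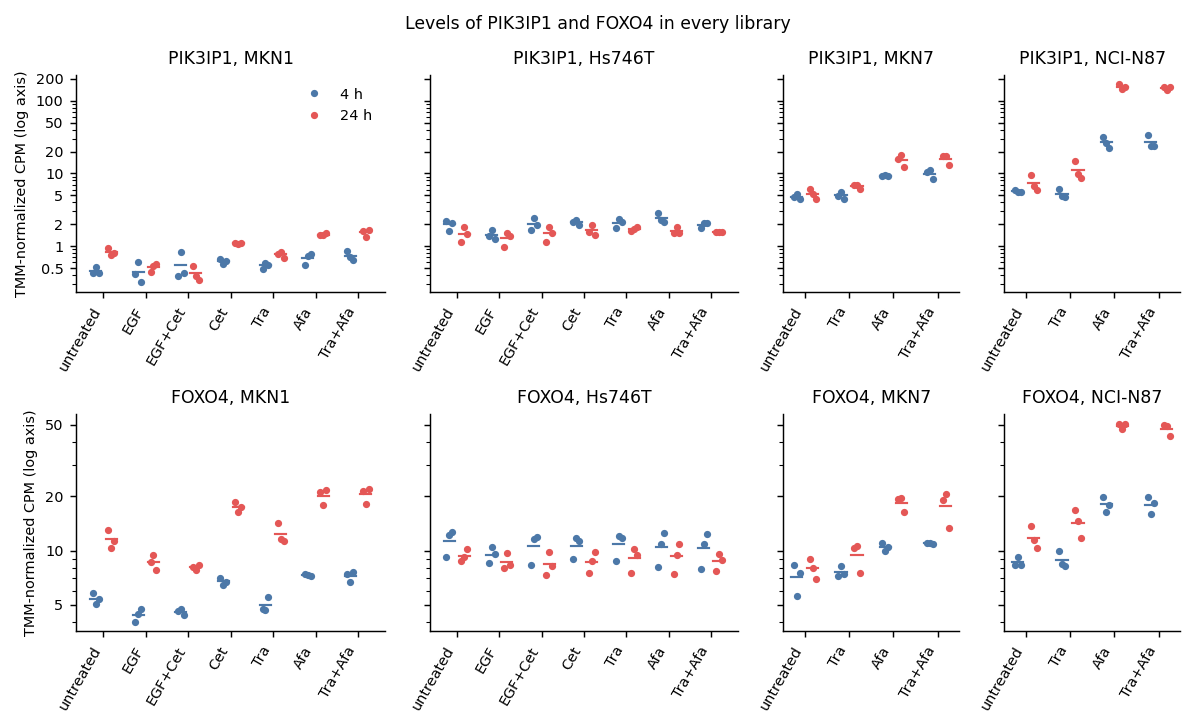
PIK3IP1 (top) and FOXO4 (bottom) in every library (TMM-normalized CPM, log axis) by treatment, for each line, with 4 h in blue, 24 h in red and a line at the mean. In NCI-N87 cells the 24 h afatinib libraries of PIK3IP1 lie between 143 and 167 CPM, while in Hs746T cells the treatments overlap.

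FOXO4, an AKT-regulated transcription factor, rose in the same 3 lines. In NCI-N87 cells it read 8.33, 9.23 and 8.33 CPM untreated and 19.8, 16.4 and 18.0 CPM with afatinib at 4 h, and 13.6, 11.5 and 10.3 CPM untreated and 50.5, 47.3 and 50.6 CPM with afatinib at 24 h. The groups were well apart. The log2FC was 1.07 at 4 h (SE 0.13, adjusted p = 2.91e-06) and 2.03 (SE 0.13, adjusted p = 1.52e-11) at 24 h, a rise of 4.10-fold. In MKN7 cells at 24 h it read 8.93, 8.01 and 6.94 CPM untreated and 19.3, 19.5 and 16.4 CPM treated, again without overlap. There the log2FC was 0.51 at 4 h (SE 0.15, adjusted p = 0.0194) and 1.2 at 24 h (SE 0.15, adjusted p = 1.47e-06), and the 4 h call was lost without replicate 1 and without replicate 2.

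In MKN1 cells FOXO4 rose from 13.0, 10.3 and 11.4 CPM to 21.1, 18.0 and 21.6 CPM at 24 h, with no overlap (log2FC 0.79, SE 0.10, adjusted p = 6.97e-07). The 4 h value was 0.42 (SE 0.10, adjusted p = 0.0161), a call that was lost when any 1 replicate was left out. In Hs746T cells FOXO4 read 8.71, 9.23 and 10.2 CPM untreated and 7.41, 9.50 and 10.9 CPM with afatinib at 24 h, and the groups overlapped (log2FC −0.02, 95% interval −0.41 to 0.36).

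The other FOXO genes moved little. FOXO1 fell by 0.34 on the log2 scale in MKN7 cells at 24 h (SE 0.10, adjusted p = 0.0102), from 20.5, 24.4 and 27.0 CPM to 17.7, 20.1 and 19.3 CPM. The groups did not overlap by a narrow margin, and the call was lost without replicate 2, without replicate 3 and with library size as the only scaling. FOXO3 passed the test under afatinib in none of the lines. Its highest value was a log2FC of 0.33 in MKN1 cells at 24 h (SE 0.13, adjusted p = 0.0682), with 43.9, 30.1 and 41.3 CPM untreated and 54.6, 40.3 and 51.5 CPM treated. The treated library was above the untreated one in each of the 3 replicates, but the groups overlapped.

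IRS1 moved in opposite directions in different lines. In MKN1 cells at 24 h it read 177, 162 and 278 CPM untreated and 101, 87.8 and 89.4 CPM with afatinib. In MKN7 cells it read 20.8, 18.8 and 23.9 CPM untreated and 9.84, 11.4 and 9.15 CPM treated. In NCI-N87 cells it read 173, 212 and 190 CPM untreated and 301, 425 and 444 CPM treated. In all 3 lines the groups were apart, treated libraries being the lower ones in MKN1 and MKN7 and the higher ones in NCI-N87 cells. At 24 h IRS1 fell by 1.17 (SE 0.16, adjusted p = 2.47e-06) in MKN1 and by 1.07 (SE 0.13, adjusted p = 6.84e-07) in MKN7 cells on the log2 scale, and rose by 0.99 (SE 0.13, adjusted p = 5.39e-07) in NCI-N87 cells. At 4 h it fell by 0.86 (SE 0.16, adjusted p = 7.08e-04) in MKN1, not called without replicate 1, and by 0.73 (SE 0.13, adjusted p = 2.00e-04) in MKN7 cells, and rose by 0.83 (SE 0.12, adjusted p = 5.10e-05) in NCI-N87 cells. In Hs746T cells IRS1 read 96.8, 59.4 and 55.7 CPM untreated and 88.9, 58.3 and 53.2 CPM treated at 24 h, nearly the same in each replicate (log2FC −0.08, 95% interval −0.69 to 0.53).

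IRS2 fell in MKN7 cells. It read 107, 113 and 92.9 CPM untreated and 60.1, 57.3 and 51.1 CPM with afatinib at 24 h, without overlap, and the log2FC was −0.90 (SE 0.13, adjusted p = 1.08e-05). At 24 h it was close to its untreated level in MKN1 cells (log2FC 0.01, SE 0.11). In NCI-N87 cells its counts were too few for a change to be read.

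The receptor INSR rose in NCI-N87 cells, from 15.8, 16.0 and 13.5 CPM to 33.9, 31.8 and 25.8 CPM at 4 h and from 17.5, 23.0 and 21.0 CPM to 32.7, 39.7 and 31.8 CPM at 24 h. Treated and untreated libraries did not overlap at either time. The log2FC was 1.02 (SE 0.17, adjusted p = 2.02e-04) at 4 h and 0.73 (SE 0.17, adjusted p = 8.72e-04) at 24 h. In MKN7 cells it rose at 24 h by a log2FC of 0.42 (SE 0.17, adjusted p = 0.0457), from 25.4, 33.1 and 23.3 CPM to 34.7, 43.2 and 32.0 CPM, with overlapping groups, and the call was lost without replicate 1 and without replicate 3. IGF1R rose in MKN7 cells, from 54.2, 63.9 and 61.9 CPM to 86.1, 104 and 77.5 CPM at 4 h and from 65.5, 75.5 and 48.2 CPM to 101, 114 and 78.4 CPM at 24 h. The groups were apart at both times (log2FC 0.53, SE 0.17, adjusted p = 0.0255 and log2FC 0.63, SE 0.17, adjusted p = 0.00352). Without replicate 1 neither IGF1R value was called in MKN7 cells, and the 4 h value was also lost without replicate 2. In NCI-N87 cells IGF1R rose at 4 h, from 22.9, 23.1 and 19.95 CPM to 35.4, 35.6 and 28.5 CPM (log2FC 0.60, SE 0.17, adjusted p = 0.0167), a call lost without replicate 1.

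Counted together, 5 of 8 members changed in NCI-N87 cells at 4 h and all 5 were higher, where 18.2% of all genes changed and 9.06% were changed and higher. At 24 h 4 changed, all higher, where 62.5% of all genes changed and 31.5% were changed and higher. In MKN7 cells 4 changed at 4 h, 3 of them higher (all genes 22.2%, and 10.1% higher), and 7 changed at 24 h, 4 higher and 3 lower (51.6%, and 26.6% higher). In MKN1 cells 2 changed at 4 h, 1 in each direction (3.68%, and 1.27% higher), and 3 changed at 24 h, 2 of them higher (25.6%, and 12.2% higher). At 24 h in NCI-N87 and MKN7 cells most genes changed, so the number of members called there is read against a high background. In NCI-N87 cells 4 of 8 stood below the 62.5% of all genes. The largest log2FC among them were those of PIK3IP1 and FOXO4. With library size as the only scaling the share of higher genes among all changed genes at 24 h went from 50.4% to 65.9% in NCI-N87, from 51.6% to 64.4% in MKN7 and from 47.9% to 64.8% in MKN1 cells. At 4 h it went from 49.9% to 61.5%, from 45.6% to 63.4% and from 34.5% to 65.1%.

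In Hs746T cells none of the 8 members changed by edgeR at 4 h or 24 h, none had an unadjusted p below 0.05, DESeq2 called none, and 0% of all genes changed at both times. The replicate numbers paired most of these libraries, and with the replicate number as a block 4 members were lower at 4 h, where 18.6% of all genes then changed. INSR fell by 0.42 (adjusted p = 0.00139), IRS1 by 0.20 (adjusted p = 0.0143), IRS2 by 0.20 (adjusted p = 0.0332) and FOXO3 by 0.18 (adjusted p = 0.0160) on the log2 scale. INSR there read 43.1, 31.7 and 31.1 CPM untreated and 31.1, 21.6 and 24.5 CPM treated, lower in each of 3 replicates though the groups overlapped slightly. At 24 h the block called none of the 8 and 0.712% of all genes.

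In the other lines the block kept every value called above and added a few. In MKN1 cells it added IRS2 at 4 h (log2FC −0.23, adjusted p = 0.0114) and FOXO3 at 24 h (0.33, adjusted p = 9.29e-05), with 13.2% and 42.2% of all genes changed. In MKN7 cells it added INSR (0.37, adjusted p = 8.03e-05) and IRS2 (−0.36, adjusted p = 7.13e-05) at 4 h and FOXO3 (0.27, adjusted p = 0.00254) at 24 h, so that all 8 were called at 24 h (38.4% and 63.7% of all genes). In NCI-N87 cells it added FOXO1 at 24 h (−0.32, adjusted p = 0.00407), with 33.0% of all genes changed at 4 h and 72.1% at 24 h.

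**Figure D3:**
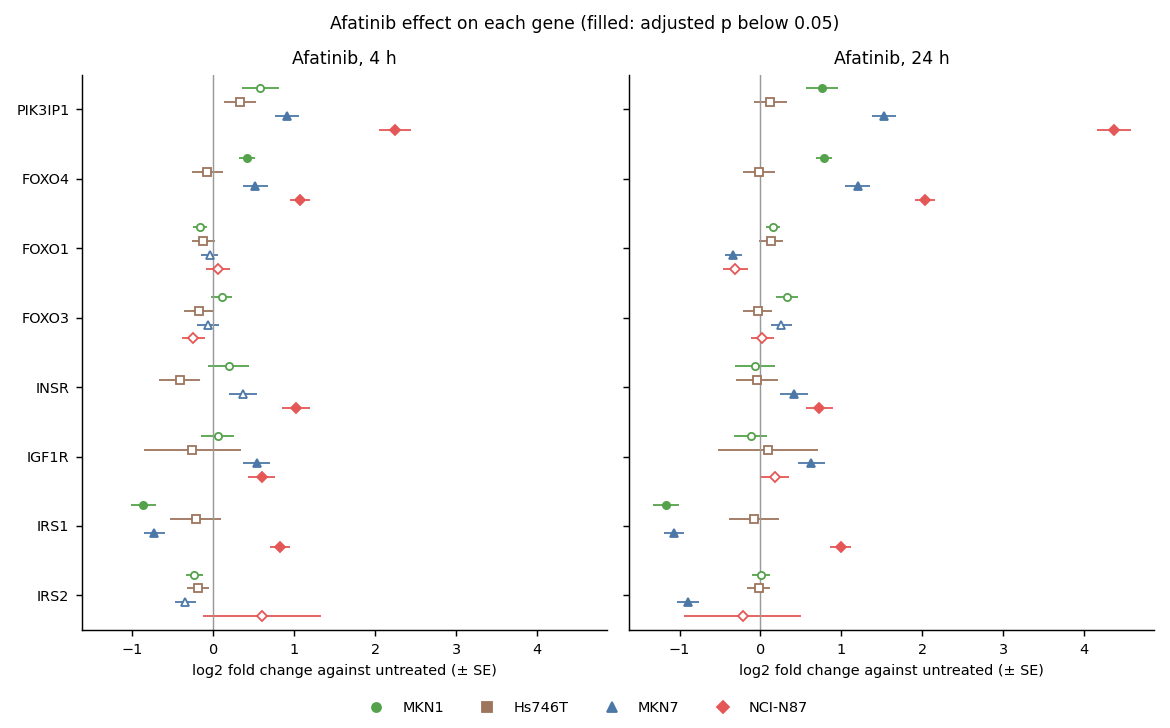
Log2 fold change of each gene under afatinib against untreated cells (points, with bars of 1 SE) for the 4 lines at 4 h (left) and 24 h (right), filled where the adjusted p is below 0.05. PIK3IP1 in NCI-N87 cells reaches 4.37 at 24 h, and IRS1 lies below 0 in MKN1 and MKN7 cells and above 0 in NCI-N87 cells.

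The difference between lines was tested directly as the difference of the afatinib effects. At 24 h the PIK3IP1 effect was larger in NCI-N87 cells than in Hs746T cells by a log2 difference of 4.25 (SE 0.26, adjusted p = 2.37e-26), than in MKN1 cells by 3.62 (SE 0.27, adjusted p = 5.13e-21) and than in MKN7 cells by 2.86 (SE 0.23, adjusted p = 1.59e-18). It was also larger in MKN7 than in Hs746T cells, by 1.38 (SE 0.26, adjusted p = 1.92e-05), whereas MKN7 did not differ from MKN1 nor MKN1 from Hs746T by the test. With the replicate block the MKN7 effect also exceeded that in MKN1 cells (0.76, adjusted p = 0.00422). The FOXO4 effect was larger in NCI-N87 cells than in each other line, and larger in MKN7 and MKN1 cells than in Hs746T cells, MKN1 not without replicate 2 or 3. The opposite movements of IRS1 also differed, by 2.17 (SE 0.32, adjusted p = 2.83e-08) between NCI-N87 and MKN1 and by 2.09 (SE 0.33, adjusted p = 2.20e-07) between NCI-N87 and MKN7 cells at 24 h. IRS2 differed at 24 h between MKN7 and Hs746T, not called without replicate 2, and between MKN7 and MKN1, not called without any 1 of the replicates. INSR differed between NCI-N87 and Hs746T cells at 4 h (1.47, SE 0.35, adjusted p = 0.00224), not called without replicate 3.

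Of all genes, the share whose afatinib effect differed at 24 h was 35.1% between NCI-N87 and Hs746T, 28.0% between NCI-N87 and MKN1, 21.4% between NCI-N87 and MKN7, 18.8% between MKN7 and Hs746T, 7.61% between MKN7 and MKN1 and 4.41% between Hs746T and MKN1. At 4 h the same shares were 6.74%, 1.83%, 1.01%, 5.30%, 1.38% and 0.372%. Of the 8 members 3, 3, 3, 4, 1 and 2 differed at 24 h and 4, 2, 2, 1, 0 and 0 at 4 h. For the last 2 comparisons, 0 and 1 members had an unadjusted p below 0.05 by edgeR, and DESeq2 was not run on differences between lines. With the replicate number as a block more members differed, and more of all genes. The block called 5, 6, 5, 8, 6 and 3 members at 24 h in the same order of comparisons, with 48.6%, 44.5%, 38.3%, 36.1%, 25.6% and 21.4% of all genes. At 4 h it called 6, 6, 4, 5, 1 and 4 members, with 25.2%, 10.6%, 8.73%, 21.4%, 10.3% and 13.2% of all genes. The 4 h call between MKN7 and MKN1 was IGF1R (0.49, adjusted p = 0.0118). Those between Hs746T and MKN1 at 4 h were IRS1 (0.60), INSR (−0.66), FOXO4 (−0.55) and FOXO3 (−0.34). Between MKN7 and MKN1 cells at 24 h it added PIK3IP1 and FOXO4 (0.41), IGF1R (0.75), INSR (0.49) and FOXO1 (−0.49).

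The effect also grew with time in NCI-N87 cells. The afatinib effect at 24 h exceeded that at 4 h by a log2 difference of 2.12 for PIK3IP1 (SE 0.27, adjusted p = 3.07e-06) and of 0.96 for FOXO4 (SE 0.18, adjusted p = 2.29e-04), where 35.8% of all genes differed. In MKN7 cells it was larger at 24 h by 0.62 for PIK3IP1 (adjusted p = 0.0405) and by 0.69 for FOXO4 (adjusted p = 0.0307), and lower by 0.55 for IRS2 (adjusted p = 0.0453), where 18.0% of genes differed. All 3 MKN7 differences were lost without replicate 1 and without replicate 2. None of the 8 effects differed between the times in MKN1 cells (2.77% of genes) or Hs746T cells (0%), by edgeR or DESeq2, with 2 and 0 members at an unadjusted p below 0.05. The block called FOXO4 (0.37, adjusted p = 0.0388) and FOXO1 (0.32, adjusted p = 0.0152) in MKN1 cells, with 15.7% of all genes. It added FOXO3 and FOXO1 in MKN7 and IGF1R and FOXO1 in NCI-N87 cells, with 36.7% and 50.9% of all genes.

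Trastuzumab, alone or added to afatinib, changed none of the 8 members in any line at any time. Against untreated cells 0% of all genes were called by edgeR in all 8 comparisons, and DESeq2 called no member. At an unadjusted p below 0.05 there were 2 members in NCI-N87 cells and 1 in MKN7 cells at 24 h and none otherwise. PIK3IP1 in NCI-N87 cells at 24 h read 14.8, 9.94 and 8.64 CPM with trastuzumab against 9.51, 6.61 and 5.85 CPM untreated. The treated library was higher in each replicate but the groups overlapped (log2FC 0.58, 95% interval 0.21 to 0.96, adjusted p = 1.00). With both drugs NCI-N87 cells read 153, 140 and 152 CPM at 24 h, against 167, 143 and 154 CPM with afatinib alone (log2FC −0.06, 95% interval −0.41 to 0.29). The combination against afatinib called 0% of all genes in every line and at both times, with no member at an unadjusted p below 0.05 and none by DESeq2.

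In MKN1 cells EGF, the ligand of EGFR, moved PIK3IP1, FOXO4 and IRS1 in the direction opposite to afatinib. At 24 h PIK3IP1 read 0.938, 0.764 and 0.816 CPM untreated and 0.436, 0.541 and 0.577 CPM with EGF. FOXO4 read 8.65, 9.49 and 7.78 CPM with EGF, against 13.0, 10.3 and 11.4 CPM untreated. IRS1 read 334, 282 and 353 CPM with EGF against 177, 162 and 278 CPM untreated. In all 3 genes EGF and untreated libraries were apart. PIK3IP1 fell by 0.68 (SE 0.22, adjusted p = 0.0161) and FOXO4 by 0.40 (SE 0.10, adjusted p = 0.00196) on the log2 scale, and IRS1 rose by 0.67 (SE 0.16, adjusted p = 0.00123). IRS2 rose by 0.27 (SE 0.11, adjusted p = 0.0462), with overlapping groups. At 4 h FOXO3 alone was called, rising from 37.8, 33.2 and 40.7 CPM to 58.1, 56.6 and 58.0 CPM without overlap (log2FC 0.64, SE 0.13, adjusted p = 0.00151). By 24 h it read 42.6, 33.1 and 44.1 CPM, which overlapped the untreated libraries. These EGF and afatinib comparisons share the untreated libraries.

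The EGF calls leaned on replicate 1. Without it none of the 4 values at 24 h and not the FOXO3 value at 4 h passed, and the number of all genes changed at 24 h went from 7094 to 3542. The IRS2 call was also lost without replicate 2, without replicate 3 and with library size as the only scaling, and the PIK3IP1 call without replicate 3. EGF changed 1 of 8 members at 4 h and 4 of 8 at 24 h, where 6.82% and 35.8% of all genes changed. With the replicate block 5 and 7 members were called, against 17.0% and 51.1% of all genes. Those added were IRS1 (0.49, adjusted p = 5.68e-04), IGF1R (0.30, adjusted p = 0.00967), FOXO1 (0.25, adjusted p = 0.00618) and FOXO4 (−0.30, adjusted p = 0.0357) at 4 h, and IGF1R (0.32, adjusted p = 0.00186), FOXO1 (−0.16, adjusted p = 0.0453) and INSR (−0.24, adjusted p = 0.0264) at 24 h.

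Cetuximab alone moved IRS1 and FOXO4 the way afatinib did in MKN1 cells. IRS1 read 188, 163 and 191 CPM at 4 h, against 294, 243 and 333 CPM untreated, and 133, 128 and 135 CPM at 24 h. FOXO4 read 18.6, 16.4 and 17.6 CPM at 24 h. All of these lay outside the range of the untreated libraries. IRS1 fell by 0.69 (SE 0.16, adjusted p = 0.0153) at 4 h, not called without replicate 1 or with library size as the only scaling, and by 0.66 (SE 0.16, adjusted p = 0.00635) at 24 h, not called without replicate 1 or 3. FOXO4 rose by a log2FC of 0.58 (SE 0.10, adjusted p = 2.91e-04) at 24 h. Cetuximab changed 1 member at 4 h and 2 at 24 h, where 1.43% and 10.8% of all genes changed. With the block 3 were called at 4 h, FOXO4 (0.31, adjusted p = 0.0411) and IRS2 (−0.21, adjusted p = 0.0339) being added, with 7.50% of all genes. At 24 h the replicate numbers did not pair the cetuximab libraries, and the block there gave 4 members and 30.4% of all genes.

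With cetuximab added to EGF, PIK3IP1, FOXO4 and IRS1 stood on the same side of untreated cells as with EGF alone. At 24 h PIK3IP1 read 0.537, 0.392 and 0.339 CPM, FOXO4 8.09, 7.84 and 8.30 CPM and IRS1 303, 255 and 320 CPM. PIK3IP1 and FOXO4 lay below all untreated libraries, and IRS1 overlapped them. Against untreated cells PIK3IP1 fell by 0.97 (SE 0.22, adjusted p = 0.00221) and FOXO4 by 0.51 (SE 0.10, adjusted p = 4.28e-04) on the log2 scale, and IRS1 rose by 0.51 (SE 0.16, adjusted p = 0.0209). All 3 calls were lost without replicate 1, where the number of all genes changed went from 3687 to 449. The IRS1 call was lost without replicate 2 and with library size as the only scaling, and the PIK3IP1 call without replicate 3. These were 3 of 8 members, where 18.6% of all genes changed (36.4% with the block, again 3 members). At 4 h none of the 8 changed by edgeR or DESeq2, with 2 at an unadjusted p below 0.05 and 0.717% of all genes changed, and the block called FOXO3 alone (0.29, adjusted p = 0.00531, 3.93% of all genes).

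Against EGF alone, the addition of cetuximab changed none of the 8 by edgeR or DESeq2 at 4 h (0.701% of all genes) or 24 h (0.646%), with 1 and 0 members at an unadjusted p below 0.05. The block called FOXO3 (−0.35) and IGF1R (−0.29) at 4 h and IGF1R (−0.28) at 24 h, with 3.99% and 7.22% of all genes. The difference at 24 h was −0.30 for PIK3IP1 (95% interval −0.76 to 0.17) and −0.11 for FOXO4 (95% interval −0.31 to 0.09). Afatinib against cetuximab in MKN1 cells also changed none of the 8 by either tool, with 0 and 3 members at an unadjusted p below 0.05 at 4 h and 24 h and 0% and 0.0757% of all genes called. The block called IRS1 at 24 h, lower with afatinib by 0.50 on the log2 scale (adjusted p = 0.00472), with 3.52% of all genes, although the replicate numbers did not pair the 24 h cetuximab libraries with untreated ones. At 24 h the difference was 0.40 for PIK3IP1 (95% interval 0.03 to 0.78) and 0.21 for FOXO4 (95% interval 0.02 to 0.40), so a larger effect of afatinib was not shown by the adjusted test, nor was it shown that the drugs act alike. In Hs746T cells EGF, cetuximab and both together changed 0 of 8 members by edgeR and DESeq2, and 0% of all genes, at 4 h and 24 h, and 1 member had an unadjusted p below 0.05, with EGF at 4 h.

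**Figure D4:**
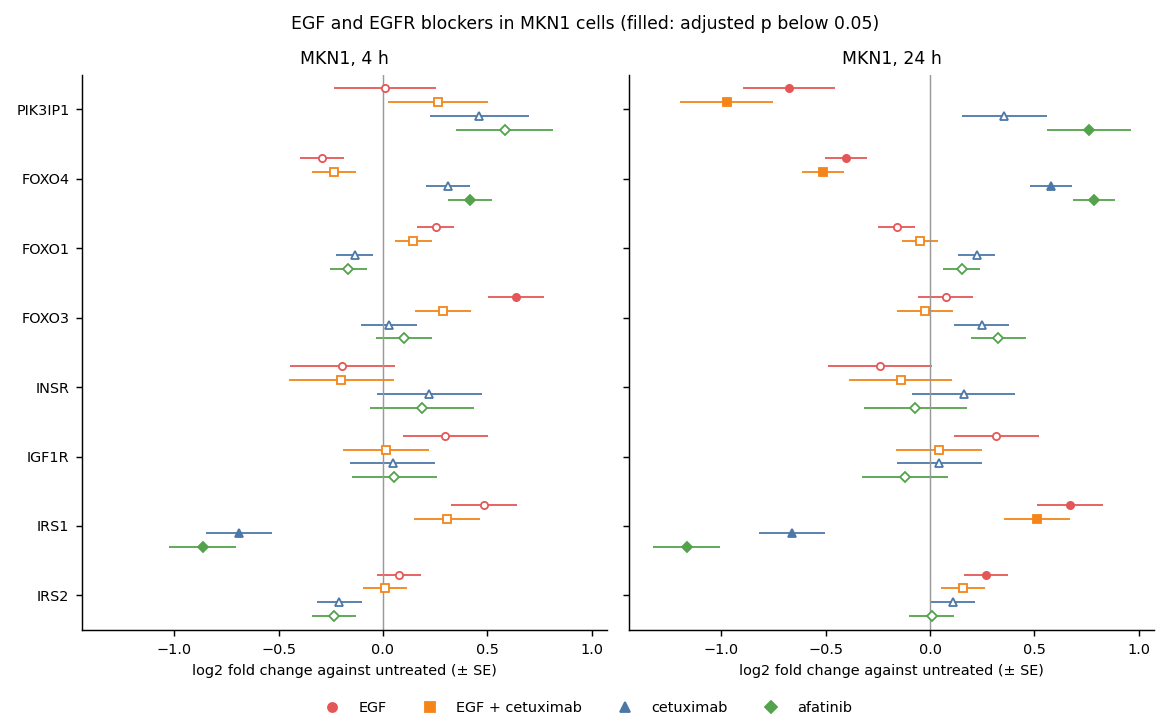
Log2 fold change against untreated MKN1 cells (points, with bars of 1 SE) under EGF, EGF with cetuximab, cetuximab and afatinib at 4 h (left) and 24 h (right), filled where the adjusted p is below 0.05. At 24 h PIK3IP1 and FOXO4 lie below 0 in both EGF arms and above 0 under cetuximab and afatinib, and IRS1 lies on the other side in each arm, although the cetuximab value of PIK3IP1 did not pass the test.

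The genes below the FOXO factors were followed in a list of 20 known FOXO target genes, all tested in every line. In NCI-N87 cells 15 rose and 1 fell with afatinib at 4 h, and 16 rose and 3 fell at 24 h, where 18.2% and 62.5% of all genes changed. The median log2FC of the list was 0.70 at 4 h and 1.04 at 24 h, against 0.02 and 0.03 over all genes. TNFSF10, which encodes the death ligand TRAIL, rose by a log2FC of 2.76 (SE 0.25, adjusted p = 8.64e-08) at 4 h and 4.09 (SE 0.26, adjusted p = 1.92e-11) at 24 h. CCNG2, a cyclin linked to cell cycle arrest, rose by 1.91 and 2.59 and ERBB3, the HER3 receptor, by 1.5 and 1.85. The apoptosis gene BBC3 rose by 1.78 at 4 h and the ubiquitin ligase gene FBXO32 by 2.45 at 24 h.

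In MKN7 cells 12 targets rose and 1 fell at 4 h, and 15 rose and 3 fell at 24 h (list medians 0.52 and 0.56, all genes 0.01 and 0.04), where 22.2% and 51.6% of all genes changed. CCNG2 (1.81), PDK4 (1.69) and FBXO32 (1.58) had the lowest adjusted p at 4 h, PDK4 encoding a kinase that limits glucose oxidation. KLF6, an immediate early transcription factor, went the other way at 24 h (−0.65, SE 0.11, adjusted p = 3.24e-05) and at 4 h (−0.64). The same gene also fell in NCI-N87 (−1.14 at 4 h and −1.58 at 24 h) and MKN1 cells (−0.83 and −0.27), each called changed. In MKN1 cells 2 rose and 2 fell with afatinib at 4 h and 10 rose and 1 fell at 24 h (list medians 0.18 and 0.31, all genes 0.01 and 0.01), where 3.68% and 25.6% of all genes changed. TNFSF10 (1.54) and TXNIP (1.22), which encodes a thioredoxin-binding protein, led at 24 h. Without replicate 3 the 24 h count was 5 higher and 0 lower, and with the block it was 17 and 2, with 1554 and 8358 of all genes changed against 5068. At 4 h it was 1 and 1 without replicate 1, without replicate 3 or with only the groups compared, and 7 and 2 with the block. In Hs746T cells no target passed the test, where 0% of all genes did.

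EGF in MKN1 cells lowered 14 targets and raised 2 at 24 h (list median −0.53, all genes −0.05), where 35.8% of all genes changed, and 7 and 1 without replicate 1 (17.8%). TNFSF10 fell by 3.33 (SE 0.28, adjusted p = 1.19e-10), CCNG2 by 0.97 and RBL2, a pocket protein that holds cells in quiescence, by 0.67 on the log2 scale. At 4 h 2 rose and 3 fell, KLF6 at 1.23 (SE 0.07, adjusted p = 1.23e-13) and TXNIP at −0.98, where 6.82% of all genes changed. The 4 h split was 1 and 1 without replicate 1, 2 and 0 without replicate 3, 2 and 1 with no filter and 3 and 6 with the block. EGF with cetuximab lowered 7 and raised none at 24 h, where 18.6% of all genes changed. It lowered 1 without replicate 1 (2.26%) and 11 with library size as the only scaling, and with the block it lowered 13 and raised 1 (36.4%). Cetuximab alone raised 6 and lowered 1 at 24 h, where 10.8% of all genes changed. The split was 1 and 0 without replicate 3 (1.32%), 2 and 0 without replicate 1 (5.47%), 2 and 1 with only the groups compared and 16 and 1 with the block (30.4%). Members of this list were chosen as FOXO targets from general knowledge, with earlier results of these data known, and no set test was run.

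**Figure D5:**
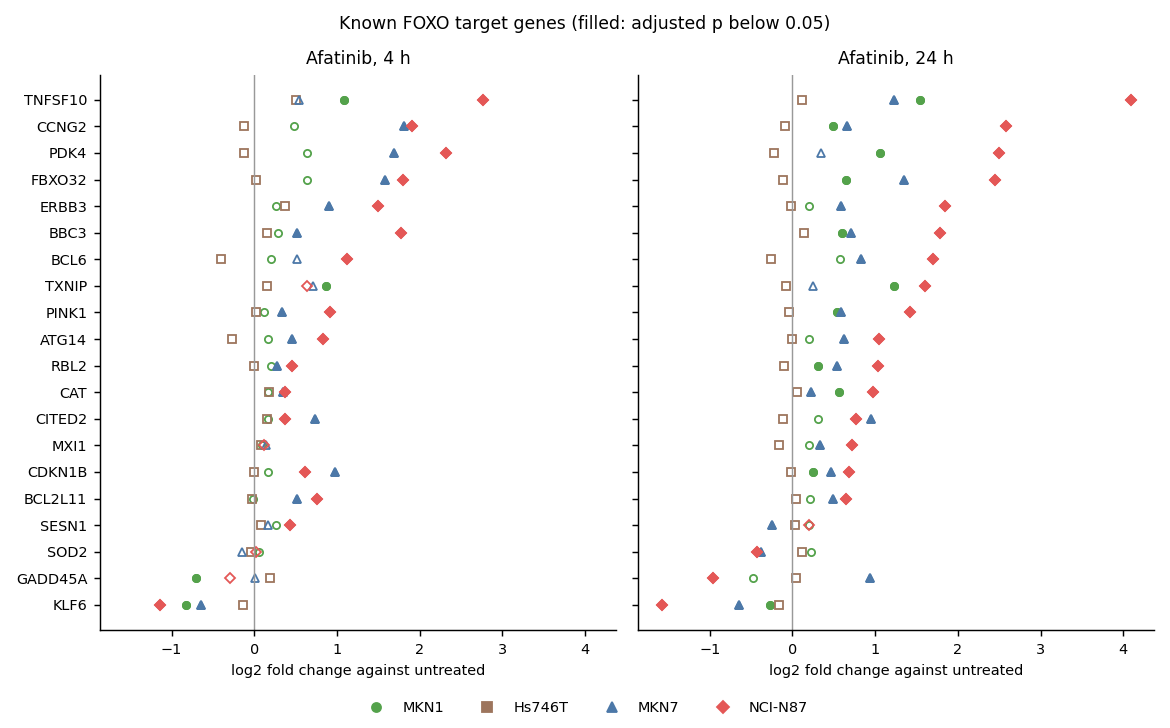
Log2 fold change of the 20 known FOXO target genes under afatinib against untreated cells (points) in the 4 lines at 4 h (left) and 24 h (right), filled where the adjusted p is below 0.05. At 24 h 16 genes in NCI-N87 and 15 in MKN7 cells are higher, and no Hs746T point is filled.

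Between the receptors and the FOXO factors, 25 of 26 listed genes of PI3 kinase, AKT and mTOR signaling were tested. In NCI-N87 cells 7 rose and 2 fell with afatinib at 4 h and 8 rose and 8 fell at 24 h. Of all genes 18.2% and 62.5% changed, and the 16 of 25 at 24 h are near that background. The split at 24 h became 12 and 6 with library size as the only scaling, and the 4 h count was 4 and 0 without replicate 1 and 4 and 1 without replicate 2. PIK3R3, a regulatory PI3 kinase subunit, rose by 1.71 (SE 0.13, adjusted p = 2.11e-10) at 24 h, while SGK1, a kinase related to AKT, fell by 1.80 (SE 0.16, adjusted p = 3.68e-09) and the catalytic subunit PIK3CB by 0.64. TSC1, which restrains mTOR, rose at 4 h in NCI-N87 (0.71, SE 0.12, adjusted p = 1.36e-04) and at 24 h in MKN7 cells (0.58, SE 0.08, adjusted p = 9.29e-06). In MKN7 cells 2 rose at 4 h and 3 rose and 6 fell at 24 h, below the 22.2% and 51.6% of all genes. The 24 h split was 4 and 5 with library size alone. At 4 h 5 were called by DESeq2, 4 with the stricter filter, 11 with the block (38.4% of all genes) and 1 without replicate 2. In MKN1 cells 1 rose and 3 fell at 4 h and 2 rose and 5 fell at 24 h, where 3.68% and 25.6% of all genes changed. The 4 h count of 4 became 1 without any 1 replicate and with only the groups compared, and 2 with library size alone or no filter. The 24 h count of 7 became 4 without replicate 1 and with only the groups compared, 2 without replicate 3 and 12 with the block (42.2% of all genes), and its split was 4 and 3 with library size alone. SGK1 fell by 2.32 and 2.17 and PIK3R3 rose by 0.59 and 1.12. EGF did the reverse there, with SGK1 at 1.5 (SE 0.24, adjusted p = 3.12e-05) at 4 h and PIK3R3 at −1.29 (SE 0.16, adjusted p = 1.58e-07) at 24 h. The list medians under afatinib lay between −0.06 and 0.07 in these 3 lines.

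Around the receptors, 14 listed genes of ligands, binding proteins and related receptors gave 12 tested in MKN1 and Hs746T and 11 in MKN7 and NCI-N87 cells. INSRR was listed at 0 in every library. With afatinib at 24 h 2 rose and 3 fell in NCI-N87, 1 rose and 4 fell in MKN7, and 2 rose and 2 fell in MKN1 cells. Of all genes 62.5%, 51.6% and 25.6% changed, so the 5 of 11 lay below the background in NCI-N87 and near it in MKN7 cells, where 3 were called without replicate 3. IGFBP4, a secreted binding protein that holds IGF away from its receptor, fell by 1.74 (SE 0.11, adjusted p = 1.89e-11) in NCI-N87, fell by 2.68 (SE 0.16, adjusted p = 1.60e-10) in MKN7 and fell by 1.32 (SE 0.16, adjusted p = 4.87e-07) in MKN1 cells, and rose by 1.47 (SE 0.16, adjusted p = 1.92e-08) with EGF in MKN1 cells. IGFBP3, another IGF binding protein, rose by 1.78 in NCI-N87 and by 2.41 in MKN7 cells, and fell by 1.08 with EGF in MKN1 cells. The adaptor genes GRB14 and GRB10, which dampen insulin receptor signaling, fell by 1.42 and 1.52 in NCI-N87 cells at 24 h. FOXO6, the remaining FOXO gene, rose with afatinib at 24 h in NCI-N87 (0.69, SE 0.10, adjusted p = 4.82e-06), MKN7 (0.63, SE 0.19, adjusted p = 0.00992) and MKN1 cells (0.91, SE 0.12, adjusted p = 9.28e-07), and fell by 1.35 with EGF in MKN1 cells (SE 0.12, adjusted p = 3.52e-10). SESN2, a sestrin related to SESN3, rose at 4 h in NCI-N87 cells (1.10, SE 0.25, adjusted p = 0.00270) and fell at 24 h in MKN7 cells (−0.76, SE 0.08, adjusted p = 2.37e-07).

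Across all conditions the pairs among PIK3IP1, FOXO4 and INSR had higher correlations than any other pair of members. Over the 44 condition means, centred on each line, PIK3IP1 and FOXO4 had a Pearson r of 0.881, FOXO4 and INSR of 0.867 and PIK3IP1 and INSR of 0.854. IRS1 and IRS2 had an r of 0.454, PIK3IP1 and IRS1 of −0.02, and FOXO4 and IRS2 of −0.49. These are descriptions without a test, since the points share lines, time points and untreated libraries. The share of all genes with as high an r was not computed. PIK3IP1 ran from 4.74 to 167 CPM in NCI-N87 libraries, so that line can weigh most in its values. INSR was not called under afatinib in MKN1 cells, where PIK3IP1 and FOXO4 rose. By the same measure the genes most like PIK3IP1 among 12768 were KLHDC2 (0.966), MXD4 (0.951) and BTN2A2 (0.948). Those most like FOXO4 were PBXIP1 (0.973), MTIF3 (0.967) and NBR1 (0.964), and those most like INSR were CHD6 (0.946), PLEKHH3 (0.934) and AGO4 (0.933). IRS1 was most like ZFP36L2 (0.925), IGF1R like WDR37 (0.854), FOXO1 like STX3 (0.836) and FOXO3 like SLC35A3 (0.723).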

How the data were processed

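Poly(A) RNA of 4 gastric cancer cell lines was sequenced by the authors as directional paired-end libraries. Per the labels the reads were trimmed with Trim Galore and aligned with STAR to hg38, and whole-number counts per Ensembl gene, 1 library per file, were deposited. Tool versions, the counting tool and its strand setting were not given in the sources used here. Of 65217 identifiers, 56813 were found in GENCODE 29, and the 8404 others held 0.0422% of counts. All 37 mitochondrial identifiers were at 0. The named genes were the 9 members, and from 4 lists at most 4 genes per comparison with the lowest adjusted p. KLF6 is also given under afatinib where it was not among those 4. The members and lists were chosen with earlier results of these data known.

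Counts were tested with edgeR 4.0.16 in R 4.3.3 (glmQLFit and glmQLFTest, two-sided), with TMM scaling, filterByExpr (minimum count 10, minimum total 15) and Benjamini-Hochberg adjustment over all genes tested. Each line had 1 fit over all its libraries, with 19815 genes in MKN1, 18667 in Hs746T, 18483 in MKN7 and 19078 in NCI-N87 cells. Differences between lines came from 1 fit of all libraries and 22832 genes. The model of the study was not given in the sources used here, and no fold threshold was used. Intervals are 1.96 SE on each side. The alternatives were DESeq2 1.42.0, library size as the only scaling, no filter on low counts, a stricter filter (10 or more counts in each library of the fit), only the groups compared, each replicate number left out in all conditions, and the replicate number as a block. The scripts were tested on simulated data. The libraries carry 2 series of description numbers (65 and 67 libraries), of unknown meaning. Treatments of 1 line, time and replicate share a series. The block was set within each line and time for treatment effects and their differences, so it covers the series there. For untreated cells compared between times or lines the block was the replicate number alone and does not cover it. No replicate pair was identical, and in every pair the spread exceeded counting error by at least 6.35 times.

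The replicate numbers come from the sample titles. Treated and untreated libraries of the same number deviated together, with correlations from −0.06 to 0.944 (median 0.722), all above 0.1 in 34 of 36 sets. The exceptions were MKN1 at 24 h with cetuximab and with trastuzumab plus afatinib. The likeness result for IRS2 is not reported here.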

Additional observations from a re-analysis of the deposited data

Results flagged for a closer look

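Of 128 tests of a difference in the afatinib effect between times or lines, 30 passed, and each is given as a log2 difference by edgeR. All were picked out because the effects of 2 groups differed. Between 24 h and 4 h, the effect in NCI-N87 cells was higher by 2.12 for PIK3IP1 and 0.96 for FOXO4. In MKN7 cells it differed by 0.62 for PIK3IP1, 0.69 for FOXO4 and −0.55 for IRS2.

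At 24 h, NCI-N87 minus Hs746T gave 4.25 for PIK3IP1, 2.085 for FOXO4 and 1.11 for IRS1. NCI-N87 minus MKN1 gave 3.62 for PIK3IP1, 2.17 for IRS1 and 1.26 for FOXO4. NCI-N87 minus MKN7 gave 2.86 for PIK3IP1, 2.09 for IRS1 and 0.86 for FOXO4. MKN7 minus Hs746T gave 1.38 for PIK3IP1, 1.23 for FOXO4, −0.98 for IRS1 and −0.88 for IRS2. MKN7 minus MKN1 gave −0.92 for IRS2. Hs746T minus MKN1 gave 1.07 for IRS1 and −0.82 for FOXO4.

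At 4 h, NCI-N87 minus Hs746T gave 1.95 for PIK3IP1, 1.47 for INSR, 1.18 for FOXO4 and 1.08 for IRS1. NCI-N87 minus MKN1 gave 1.64 for PIK3IP1 and 1.67 for IRS1. NCI-N87 minus MKN7 gave 1.29 for PIK3IP1 and 1.51 for IRS1. MKN7 minus Hs746T gave 0.67 for FOXO4.

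Several of these were not called when a replicate was left out. At 24 h both Hs746T minus MKN1 values were lost without replicate 2 and without replicate 3, the IRS1 value of MKN7 minus Hs746T without replicate 2 and without replicate 3, and its IRS2 value without replicate 2. At 4 h the IRS1 value was lost without replicate 2 and without replicate 3 against Hs746T and MKN7, and without replicate 2 against MKN1, in NCI-N87 cells. The 4 h FOXO4 value of MKN7 minus Hs746T was lost without replicate 2 and without replicate 3.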

How the results depend on the processing

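Of 107 called member values none changed direction in any alternative run, and 65 were called in all of them. With library size as the only scaling the median log2FC of all genes moved by more than 0.1 in 13 of 66 comparisons, most by 0.26 for NCI-N87 cells with afatinib at 24 h, by 0.21 for the 24 h afatinib effect in NCI-N87 minus Hs746T cells and by −0.20 for MKN1 cells with EGF at 24 h. The level of a gene in a condition changed by 0.888 to 1.2 times, by more than 1 SD in 50 of 352 levels. PIK3IP1 in MKN1 cells and IRS2 in NCI-N87 cells had the fewest counts and so the least precise values. The causes of the moves listed below were not tested.

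The replicate block lost no called value and raised the share of all genes changed. The number of members changed and that share are given with the block, and without it in parentheses. They became 4 and 18.6% (0 and 0%) for afatinib in Hs746T cells at 4 h. In MKN1 cells they became 5 and 17.0% (1 and 6.82%) and 7 and 51.1% (4 and 35.8%) with EGF at 4 h and 24 h, 1 and 3.93% (0 and 0.717%) with EGF and cetuximab at 4 h, and 3 and 7.50% (1 and 1.43%) and 4 and 30.4% (2 and 10.8%) with cetuximab at 4 h and 24 h. EGF and cetuximab against EGF gave 2 and 3.99% (0 and 0.701%) and 1 and 7.22% (0 and 0.646%), and afatinib against cetuximab at 24 h 1 and 3.52% (0 and 0.0757%). Untreated 24 h against 4 h gave 1 and 10.2% (0 and 1.48%) in Hs746T, 2 and 30.9% (0 and 16.4%) in MKN7 and 3 and 4.32% (0 and 0.267%) in NCI-N87 cells. The afatinib effect at 24 h minus 4 h gave 2 and 15.7% (0 and 2.77%) in MKN1, 5 and 36.7% (3 and 18.0%) in MKN7 and 4 and 50.9% (2 and 35.8%) in NCI-N87 cells. Between lines, the block moved the count at 4 h to 4 (0) for Hs746T and MKN1, 5 (1) for MKN7 and Hs746T, 1 (0) for MKN7 and MKN1, 6 (2) for NCI-N87 and MKN1 and 4 (2) for NCI-N87 and MKN7. At 24 h it moved it to 8 (4) for MKN7 and Hs746T, 6 (1) for MKN7 and MKN1, 5 (3) for NCI-N87 and Hs746T, 6 (3) for NCI-N87 and MKN1 and 5 (3) for NCI-N87 and MKN7. The shares of all genes stand beside these differences in the results. In the other comparisons the block moved the count by 1.5 times or less.

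Shares below are of the genes tested in each run, and DESeq2 was run without the filter on low counts. Of the other settings, DESeq2 moved 2 counts. MKN1 with EGF at 4 h went to 3 (1516 of 34129 genes, against 1351 of 19815 in the main fit). Untreated NCI-N87 24 h against 4 h went to 1 (0.778%). The stricter filter moved MKN1 with EGF at 4 h to 2 (1388 of 15169 genes). Library size alone moved MKN1 with cetuximab at 4 h to 0 (238 of all genes) and with EGF at 4 h to 2 (8.71%). Using only the groups compared moved MKN1 with afatinib at 4 h to 1 (1.62%), with cetuximab at 4 h to 0 (0.671%) and with EGF at 24 h to 1 (25.6%), and the differences of Hs746T and MKN1 at 24 h (0.544%) and of MKN7 and Hs746T at 4 h (4.75%) to 0. Leaving out the filter moved none.

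With 1 replicate left out the share of all genes changed mostly fell too, and its range is given in parentheses. The counts ran from 0 to 1 for MKN1 with afatinib at 4 h (1.10% to 2.08%), 0 to 2 (2.16% to 5.43%) and 0 to 3 (17.8% to 31.4%) with EGF at 4 h and 24 h, 0 to 2 with EGF and cetuximab at 24 h (2.26% to 16.3%), 0 to 1 (0.417% to 0.869%) and 1 to 2 (1.32% to 10.9%) with cetuximab at 4 h and 24 h, and 2 to 5 for untreated MKN1 24 h against 4 h (17.3% to 30.5%). They ran from 2 to 4 for MKN7 with afatinib at 4 h (12.4% to 14.2%) and 0 to 2 for its 24 h minus 4 h difference (7.24% to 10.4%). Between lines at 24 h they ran from 0 to 2 for Hs746T and MKN1 (0.265% to 5.68%), 2 to 4 for MKN7 and Hs746T (7.39% to 17.7%) and 0 to 0 for MKN7 and MKN1 (2.76% to 6.25%). At 4 h they ran from 0 to 1 for MKN7 and Hs746T (1.84% to 4.19%), 2 to 4 for NCI-N87 and Hs746T (2.16% to 4.86%), 1 to 2 for NCI-N87 and MKN1 (0.416% to 1.15%) and 1 to 2 for NCI-N87 and MKN7 (0.202% to 0.785%).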
